A study of Mus musculus with 12 samples.

Results

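The genes described here are the ligands and receptors of the tumour necrosis factor (TNF) superfamily. They were taken by gene symbol: every gene whose symbol begins with Tnfsf or Tnfrsf, together with Tnf, Lta, Ltb, Ltbr, Cd40, Cd40lg, Cd70, Cd27, Fas and Fasl. This gave 39 of the 19938 genes measured, 15 ligands and 24 receptors, and each of the 39 had 1 probe set. A further probe set carried several symbols, at least 1 of them of the family, and was left out.

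Mouse C57B/6 bone marrow had been grown for 6 days in 20 ng/ml GM-CSF, which drives myeloid growth. The arrays compare cells labelled as dendritic cells (GM-DC) with cells labelled as macrophages (GM-MF) from these cultures, both left unstimulated or given the bacterial Toll-like receptor 4 ligand lipopolysaccharide (LPS) at 10 ng/ml for 4 hours. Each of the 4 groups had 3 Affymetrix Mouse Gene 1.0 arrays, 12 in all. The labels do not say how GM-DC and GM-MF were parted, nor whether the replicates came from separate mice or cultures, so that the p-values reflect array-to-array spread alone, whether biological or technical.

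TNF superfamily ligands are mostly membrane proteins that act as trimers on a neighbouring cell, and some, such as TNF, are also shed as soluble cytokines. Their receptors signal through TRAF adaptors to NF-kB and MAP kinases or, where they carry a death domain, to caspases and RIP kinases. On antigen-presenting cells several ligands (OX40L, CD70, 4-1BBL) costimulate T cells, and the receptor CD40 receives the help signal of T cells.

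Values are log2 expression as deposited, differences are log2 differences with the standard error of a limma fit after the sign ±, and means carry the SD over 3 arrays. A gene was called at a Benjamini-Hochberg adjusted p under 0.05 over all 19938 genes. The array medians lay between 4.41 and 4.54, and a value near or under them was not shown to lie above background, so a fold against it is a ratio of signals. Within each group the correlation between arrays was 0.993 to 0.996 over genes. The SD of a member within its groups ran from 0.047 to 0.418 with a median of 0.211, against a median of 0.155 over all genes. Marker lists, chosen with earlier results of these data known, describe the groups and do not test the labels. The 8 dendritic cell markers averaged 9.89 to 10.05 on GM-DC arrays and 6.72 to 7.76 on GM-MF arrays. Of these, Itgax (CD11c) was lower in GM-DC (-2.20 without LPS) and H2-Ab1 was not called (-0.22 without LPS, adjusted p = 0.0547). The 8 macrophage markers averaged 6.02 to 6.36 on GM-DC and 10.09 to 10.36 on GM-MF arrays. In such bulk samples fewer cells of a type and less RNA per cell cannot be told apart.

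Of the 39 members, 27 were called in at least 1 of 5 comparisons, 22 of them with a difference of at least 2-fold (10 ligands and 12 receptors). Without LPS 24 members differed between GM-DC and GM-MF, 8 higher and 16 lower in GM-DC, against 34.2% of all genes called, 18.0% higher and 16.2% lower. At least 2-fold differences were found for 15 members, against 12.7% of all genes. With LPS the counts were again 24, 8 higher and 16 lower (36.3% of all genes called, 20.9% higher and 15.4% lower), and 18 reached 2-fold (12.9% of all genes). The same direction at 2-fold or more without and with LPS was found for 13 members (9.59% of all genes). The median difference over the members was -0.01 without and -0.09 with LPS, beside -0.01 and 0.00 over all genes, so the members lay on both sides. Among all called genes the share higher in GM-DC with LPS was 57.6%, and 47.2% after cyclic loess.

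**Figure D1:**
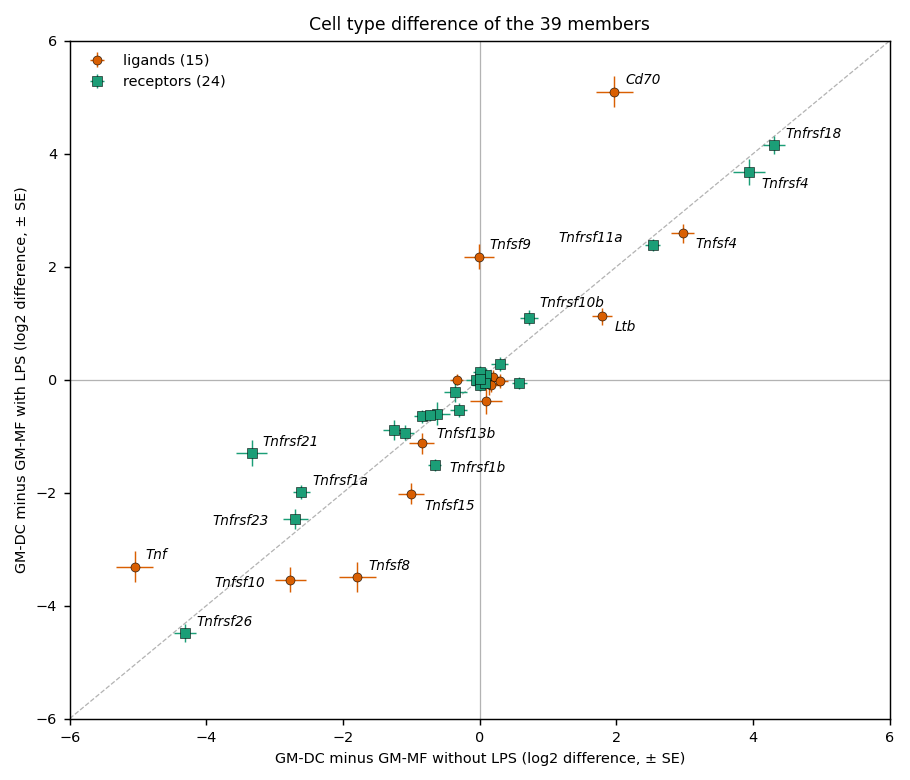
Log2 difference GM-DC minus GM-MF without LPS (x axis) against the same with LPS (y axis) for the 39 members, with bars of 1 SE of the limma fit; circles are ligands, squares receptors, and the dashed line marks equal values. Most members lie near the line, Tnfrsf18 and Tnfrsf4 at one end and Tnfrsf26 at the other, while Cd70, Tnfsf9, Tnf and Tnfrsf21 lie above it and Tnfsf8 and Tnfsf15 below it.

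Among the ligands, Tnfsf4, Cd70 and Ltb were higher in GM-DC without and with LPS and Tnfsf9 with LPS, while Tnf, Tnfsf8, Tnfsf15, Tnfsf10 and Tnfsf13b were higher in GM-MF without and with LPS. Tnfsf4, which encodes OX40L, a costimulator of T cells, stood at 9.31, 9.29 and 9.51 on the unstimulated GM-DC arrays and at 6.66, 6.26 and 6.29 on those of GM-MF. With LPS it stood at 10.42, 10.39 and 10.24 in GM-DC and at 8.22, 7.56 and 7.49 in GM-MF. The 4 groups did not overlap, and every GM-DC array was above every GM-MF array. The difference was 2.97 ± 0.17 without and 2.59 ± 0.17 with LPS (7.82-fold and 6.04-fold, adjusted p = 1.66e-09 and 7.77e-09), and LPS raised the gene in both cell types, by 0.98 ± 0.17 in GM-DC (adjusted p = 0.00136) and 1.36 ± 0.17 in GM-MF (adjusted p = 4.64e-05).

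Cd70, the ligand of the T cell receptor CD27, stood at 5.25, 5.77 and 6.20 in unstimulated GM-DC and at 9.58, 9.85 and 9.22 after LPS. In GM-MF it stood at 3.88, 3.98 and 3.45 without and at 4.03, 5.06 and 4.27 with LPS, so 5 of 6 arrays were under the array medians. LPS raised it 14.0-fold in GM-DC (3.81 ± 0.27, adjusted p = 2.30e-07), while in GM-MF the difference of 0.69 ± 0.27 did not pass (adjusted p = 0.103). The responses differed by 3.12 ± 0.38 (adjusted p = 9.18e-05), and with LPS the cell types differed by 5.10 ± 0.27.

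Tnfsf9, which encodes 4-1BBL, was not called between the cell types before LPS, with 6.24, 6.13 and 6.92 in GM-DC and 6.16, 6.93 and 6.23 in GM-MF (-0.01 ± 0.22, adjusted p = 0.991). After LPS it stood at 9.50, 9.56 and 9.15 in GM-DC and at 7.09, 7.18 and 7.41 in GM-MF, and these groups no longer overlapped. The response was 7.85-fold in GM-DC (2.97 ± 0.22, adjusted p = 3.77e-07) and 1.73-fold in GM-MF (0.79 ± 0.22, adjusted p = 0.0202), and the difference of the responses was 2.18 ± 0.31 (adjusted p = 0.000362). The call in GM-MF was lost without GM-MF unstimulated replicate 1 or 3 or GM-MF LPS replicate 3, with values of 0.65 to 0.70 and adjusted p = 0.0870 to 0.0995.

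Ltb, which encodes lymphotoxin beta, the membrane partner of lymphotoxin alpha, stood at 6.97, 6.77 and 7.30 in unstimulated GM-DC and at 5.44, 5.09 and 5.14 in GM-MF (1.79 ± 0.15, 3.45-fold, adjusted p = 1.73e-07). With LPS the arrays read 6.73, 6.60 and 7.10 in GM-DC and 5.74, 5.72 and 5.60 in GM-MF (1.12 ± 0.15, adjusted p = 2.45e-05). Its LPS difference passed in neither cell type (-0.20 ± 0.15 in GM-DC and 0.46 ± 0.15 in GM-MF, adjusted p = 0.576 and 0.0527). With replicate numbers as a block within each cell type Ltb was called for LPS in GM-MF (0.46, adjusted p = 0.00645) and for the difference of responses (-0.66, adjusted p = 0.0119).

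**Figure D2:**
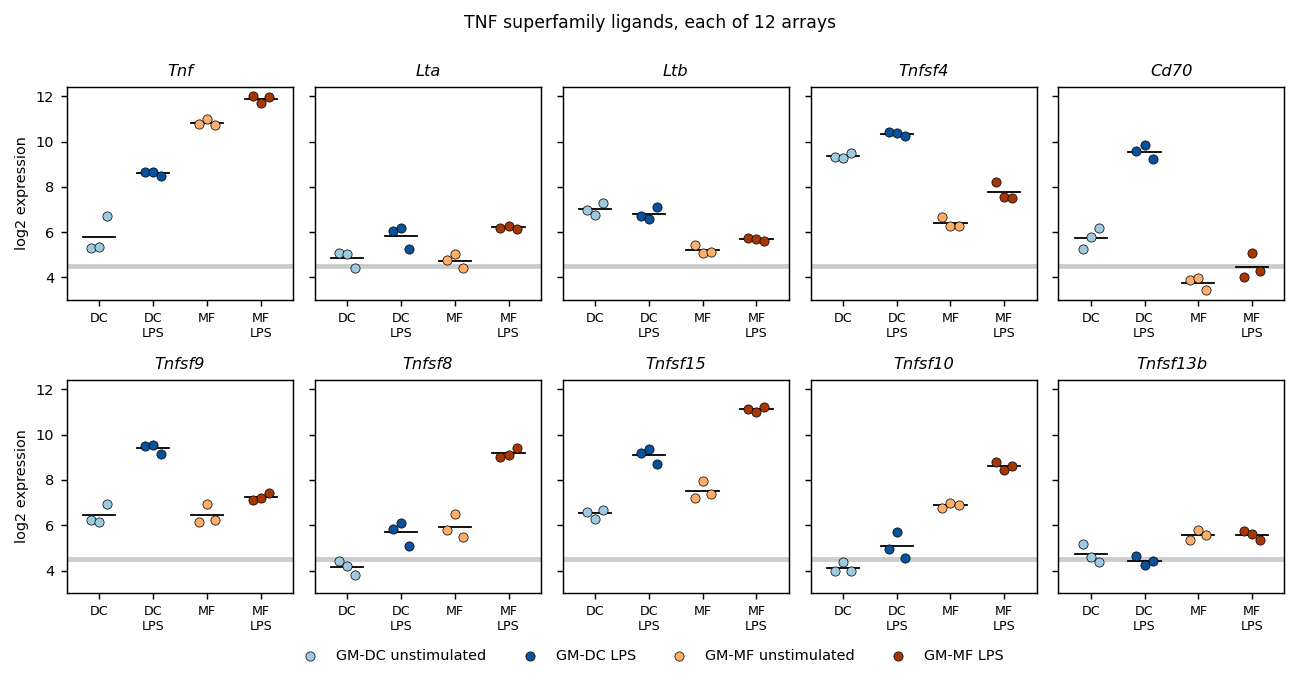
Log2 expression (y axis) of the 10 ligands with a called difference of at least 2-fold, on each of the 12 arrays; points are arrays, horizontal lines group means, and the grey band the range of the array medians, 4.41 to 4.54. Tnfsf4 is high in GM-DC, Cd70 is high only in GM-DC with LPS, Tnf is high in GM-MF, and Tnfsf8 and Tnfsf15 are highest in GM-MF with LPS.

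Tnf, the founding cytokine of the family, stood at 5.30, 5.35 and 6.71 in unstimulated GM-DC and at 10.78, 11.01 and 10.71 in unstimulated GM-MF, a 33.1-fold difference (-5.05 ± 0.27, adjusted p = 7.37e-10). LPS brought the GM-DC arrays to 8.64, 8.65 and 8.49 and the GM-MF arrays to 11.99, 11.72 and 11.98. Every GM-MF array without LPS was thus above every GM-DC array with LPS. The response was 6.99-fold in GM-DC (2.81 ± 0.27, adjusted p = 5.73e-06) and 2.09-fold in GM-MF (1.06 ± 0.27, adjusted p = 0.0115), a difference of 1.74 ± 0.38 (adjusted p = 0.00928), and 9.89-fold lower signal remained in GM-DC with LPS (-3.31 ± 0.27).

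Tnfsf8, which encodes CD30 ligand, stood at 4.40, 4.20 and 3.81 in unstimulated GM-DC, under the array medians, and at 5.80, 6.50 and 5.48 in GM-MF. After LPS it read 5.84, 6.11 and 5.10 in GM-DC and 9.02, 9.09 and 9.40 in GM-MF. Both cell types responded, GM-MF 9.46-fold (3.24 ± 0.27, adjusted p = 8.56e-07) and GM-DC 2.92-fold (1.54 ± 0.27, adjusted p = 0.0013), and the responses differed by -1.70 ± 0.38 (adjusted p = 0.0104).

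Tnfsf15, which encodes TL1A, a ligand of death receptor 3, changed in the same directions. It stood at 6.59, 6.27 and 6.69 in unstimulated GM-DC and at 7.22, 7.96 and 7.37 in GM-MF, and after LPS at 9.19, 9.34 and 8.72 in GM-DC and at 11.14, 10.99 and 11.20 in GM-MF. The response was 12.1-fold in GM-MF (3.59 ± 0.19, adjusted p = 1.17e-08) and 5.91-fold in GM-DC (2.56 ± 0.19, adjusted p = 4.13e-07). The difference of the responses, -1.03 ± 0.27 (adjusted p = 0.0285), did not hold with replicate numbers as a block within each cell type (-1.03, adjusted p = 0.0542) or after quantile normalization (-0.97, adjusted p = 0.0529). It was also lost without GM-DC unstimulated replicate 1 or 3, GM-MF unstimulated replicate 1 or 3, GM-DC LPS replicate 3, or GM-MF LPS replicate 1 or 3, with values of -1.01 to -0.85 and adjusted p = 0.0577 to 0.0787.

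Tnfsf10, which encodes the death ligand TRAIL, stood at 3.96, 4.38 and 4.00 in unstimulated GM-DC, under the array medians, and at 6.75, 6.99 and 6.90 in GM-MF. After LPS it read 4.96, 5.69 and 4.53 in GM-DC and 8.78, 8.44 and 8.59 in GM-MF, so that no GM-DC array reached a GM-MF array. The cell types differed by -2.77 ± 0.22 without and -3.54 ± 0.22 with LPS (6.82-fold and 11.6-fold, adjusted p = 6.80e-08 and 4.25e-09). LPS raised it 3.30-fold in GM-MF (1.72 ± 0.22, adjusted p = 5.43e-05) and 1.94-fold in GM-DC (0.95 ± 0.22, adjusted p = 0.011). The call in GM-DC was lost without GM-DC unstimulated replicate 1 (0.88, adjusted p = 0.052) and when the fit held just the groups in question (adjusted p = 0.0584).

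Tnfsf13b, which encodes BAFF, a survival factor of B cells, stood at 5.17, 4.59 and 4.38 in unstimulated GM-DC and at 5.35, 5.80 and 5.56 in GM-MF (-0.85 ± 0.18, adjusted p = 0.00161). In LPS-treated cells it read 4.63, 4.25 and 4.44 in GM-DC, near or under the array medians. In LPS-treated GM-MF it read 5.76, 5.59 and 5.36, a difference of -1.13 ± 0.18 (adjusted p = 0.000133). No LPS difference passed (-0.28 in GM-DC and 0.00 in GM-MF). Lta, which encodes lymphotoxin alpha, read 5.08, 5.04 and 4.41 in unstimulated GM-DC and 6.07, 6.18 and 5.25 after LPS. In GM-MF it read 4.77, 5.04 and 4.43 without and 6.17, 6.29 and 6.16 with LPS. LPS raised it by 1.46 ± 0.23 in GM-MF (adjusted p = 0.000368) and by 0.99 ± 0.23 in GM-DC (adjusted p = 0.012), the latter lost without GM-DC unstimulated replicate 3 or GM-DC LPS replicate 1 or 2 (0.77 to 0.87, adjusted p = 0.0549 to 0.0715) and when the fit held just the groups in question (adjusted p = 0.0508). The cell types did not pass as different for Lta without or with LPS (0.09 ± 0.23 and -0.37 ± 0.23).

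The other 5 ligands stayed low or flat. Cd40lg, Fasl, Tnfsf18 (GITR ligand) and Tnfsf14 (LIGHT) were under the array medians on all 12 arrays, and Tnfsf11, which encodes RANKL, lay between 5.62 and 6.53 with no call. Tnfsf14 was called once, lower in unstimulated GM-DC (-0.34 ± 0.10, adjusted p = 0.018). That call was lost without GM-DC unstimulated replicate 1 or 2 or GM-MF unstimulated replicate 1 or 3 (-0.32 to -0.31, adjusted p = 0.0564 to 0.0604).

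Among the receptors, GITR, OX40 and RANK were higher in GM-DC, and the TNF receptors, DR6 and a cluster of TRAIL receptor relatives were higher in GM-MF. Tnfrsf18, which encodes GITR, a costimulatory receptor best known on T cells, stood at 9.43, 9.43 and 9.66 in unstimulated GM-DC and at 5.27, 5.39 and 4.94 in GM-MF. With LPS it read 9.41, 9.45 and 9.58 in GM-DC and 5.25, 5.73 and 5.02 in GM-MF. The difference was 19.8-fold without LPS (4.31 ± 0.16, adjusted p = 1.71e-11) and 17.7-fold with LPS (4.15 ± 0.16, adjusted p = 2.81e-11), and no LPS difference passed (-0.02 ± 0.16 in GM-DC and 0.13 ± 0.16 in GM-MF).

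Tnfrsf4, which encodes OX40, the receptor of OX40L, read 8.64, 8.71 and 9.04 in unstimulated GM-DC and 4.26, 5.22 and 5.08 in GM-MF, and with LPS 8.44, 8.24 and 8.87 in GM-DC and 4.85, 4.60 and 5.07 in GM-MF. The difference was 15.4-fold without and 12.8-fold with LPS (3.94 ± 0.23 and 3.68 ± 0.23, adjusted p = 1.66e-09 and 3.78e-09). Of the GM-MF values, 4.26 was under the array medians and 4.60 near them. OX40 and GITR are also T cell genes. The 9 T and NK cell markers averaged 4.22 to 4.50 on unstimulated GM-DC arrays and 3.77 to 4.06 on GM-MF arrays, and 4.30 to 4.40 and 3.87 to 3.96 with LPS. Of these markers Cd8a (7.49 ± 0.201 in unstimulated GM-DC and 4.40 ± 0.446 in GM-MF) and Thy1 (6.41 ± 0.424 and 5.11 ± 0.185) were higher in GM-DC, as was Cd3g by a smaller margin (4.11 ± 0.0774 and 3.69 ± 0.119), and Klrb1c was lower (2.53 ± 0.0425 and 2.98 ± 0.365). The other 5 were not called. Among them Cd3e read 4.86 ± 0.155 and 4.98 ± 0.248, and Cd3d (3.03 ± 0.137 and 2.86 ± 0.0347) and Cd4 (3.61 ± 0.131 and 3.58 ± 0.0466) were under the array medians in both. The part of such cells in the levels of OX40 and GITR was not tested.

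Tnfrsf11a, which encodes RANK, the receptor of RANKL, stood at 8.40, 8.46 and 8.37 in unstimulated GM-DC and at 5.97, 5.84 and 5.82 in GM-MF (2.53 ± 0.11, 5.79-fold, adjusted p = 7.35e-11). The LPS arrays read 8.18, 8.21 and 8.13 in GM-DC and 5.90, 5.55 and 5.94 in GM-MF (2.38 ± 0.11, adjusted p = 1.63e-10). Tnfrsf10b, the mouse death receptor of TRAIL, read 5.51, 5.22 and 5.44 in unstimulated GM-DC and 4.77, 4.56 and 4.68 in GM-MF (0.72 ± 0.13, adjusted p = 0.000352). With LPS the arrays read 5.43, 5.70 and 5.35 in GM-DC and 4.27, 4.63 and 4.28 in GM-MF (1.10 ± 0.13, adjusted p = 4.94e-06). TRAIL and this receptor thus lay on opposite sides, the ligand higher in GM-MF and the receptor higher in GM-DC. The GM-MF values of Tnfrsf10b, like those of TRAIL in unstimulated GM-DC, lay near or under the array medians.

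**Figure D3:**
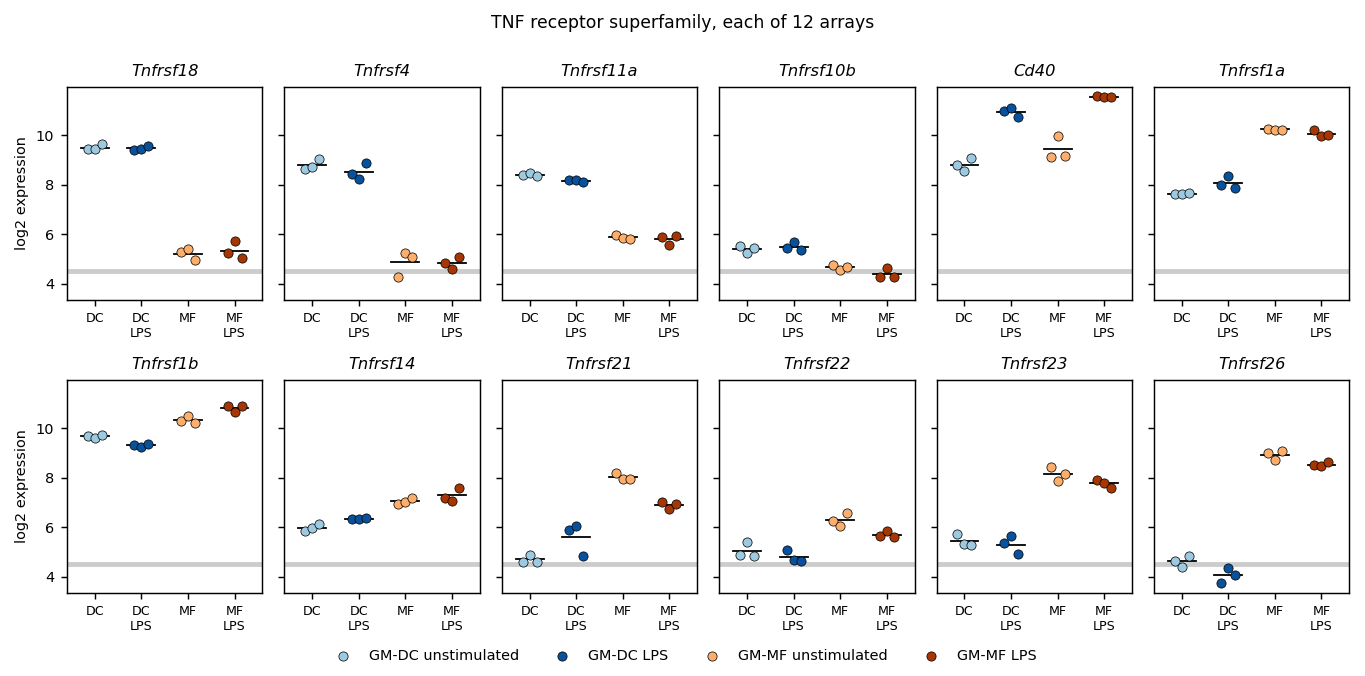
Log2 expression (y axis) of the 12 receptors with a called difference of at least 2-fold, on each of the 12 arrays; points are arrays, horizontal lines group means, and the grey band the range of the array medians, 4.41 to 4.54. Tnfrsf18, Tnfrsf4 and Tnfrsf11a are high in GM-DC, Tnfrsf26, Tnfrsf23 and Tnfrsf1a are high in GM-MF, and Cd40 is higher with LPS in both.

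Cd40, the receptor through which helper T cells license dendritic cells, was the receptor that LPS raised in both cell types. It read 8.80, 8.55 and 9.07 in unstimulated GM-DC and 11.00, 11.13 and 10.76 after LPS (2.16 ± 0.20, 4.46-fold, adjusted p = 3.41e-06). In GM-MF it read 9.14, 9.99 and 9.16 and then 11.58, 11.55 and 11.54 (2.13 ± 0.20, 4.37-fold, adjusted p = 2.66e-06). The responses differed by 0.03 ± 0.28 (adjusted p = 0.982), with a standard error that leaves room for a difference in either direction. It was lower in GM-DC by 0.63 ± 0.20 without and 0.60 ± 0.20 with LPS (adjusted p = 0.0207 and 0.0258). The call without LPS was lost without GM-DC unstimulated replicate 1 or 2 or GM-MF unstimulated replicate 2 (-0.62 to -0.35, adjusted p = 0.0509 to 0.0992) and when the fit held just the groups in question (adjusted p = 0.0613). The call with LPS was lost without GM-DC LPS replicate 1 or 3 or any of the 3 GM-MF LPS arrays (-0.62 to -0.49, adjusted p = 0.0508 to 0.103) and after quantile normalization (adjusted p = 0.0512).

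Both receptors of TNF were higher in GM-MF. Tnfrsf1a, the death domain receptor TNFR1, read 7.62, 7.63 and 7.66 in unstimulated GM-DC and 10.27, 10.22 and 10.24 in GM-MF (-2.61 ± 0.12, 6.10-fold, adjusted p = 1.22e-10). With LPS it read 8.0, 8.35 and 7.88 in GM-DC and 10.21, 9.96 and 10.03 in GM-MF (-1.99 ± 0.12, 3.98-fold, adjusted p = 2.52e-09). It rose with LPS in GM-DC by 0.44 ± 0.12 (adjusted p = 0.0268), and the difference of the responses was 0.62 ± 0.17 (adjusted p = 0.0341). The rise was lost without any of the 3 GM-DC unstimulated arrays or GM-DC LPS replicate 2 (0.30 to 0.45, adjusted p = 0.0551 to 0.131) and when the fit held just the groups in question (adjusted p = 0.0753). The difference of the responses was lost without any 1 of 10 arrays, all but GM-DC LPS replicate 3 and GM-MF LPS replicate 1 (0.48 to 0.65, adjusted p = 0.0501 to 0.0842).

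Tnfrsf1b, which encodes TNFR2, read 9.71, 9.62 and 9.72 in unstimulated GM-DC and 10.30, 10.49 and 10.23 in GM-MF (-0.66 ± 0.10, adjusted p = 0.000103). After LPS the gene read 9.32, 9.25 and 9.38 in GM-DC and 10.90, 10.67 and 10.92 in GM-MF (-1.51 ± 0.10, 2.85-fold, adjusted p = 1.29e-08). LPS moved it in opposite directions, by -0.37 ± 0.10 in GM-DC (adjusted p = 0.0361) and 0.49 ± 0.10 in GM-MF (adjusted p = 0.00354), and the responses differed by -0.85 ± 0.15 (adjusted p = 0.00171). The fall in GM-DC was lost with replicate numbers as a block within each cell type (-0.37, adjusted p = 0.0602), and without any of the 3 GM-DC unstimulated arrays or GM-DC LPS replicate 1 or 2 (-0.40 to -0.33, adjusted p = 0.0668 to 0.133).

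Tnfrsf21, which encodes the death domain receptor DR6, read 4.60, 4.89 and 4.60 in unstimulated GM-DC, near the array medians. In unstimulated GM-MF it read 8.20, 7.96 and 7.97, a difference of -3.34 ± 0.23 (10.2-fold, adjusted p = 1.60e-08). With LPS it read 5.88, 6.06 and 4.84 in GM-DC and 7.02, 6.73 and 6.94 in GM-MF (-1.30 ± 0.23, 2.46-fold, adjusted p = 0.000323). It fell in GM-MF by 1.15 on the log2 scale (-1.15 ± 0.23, adjusted p = 0.00259) and rose in GM-DC by 0.90 ± 0.23 (adjusted p = 0.0228), although GM-DC LPS replicate 3 lay within the unstimulated arrays. The difference of the responses was 2.04 ± 0.33 (adjusted p = 0.00105). The rise in GM-DC was lost without GM-DC unstimulated replicate 1 or 3 or GM-DC LPS replicate 1 or 2 (0.66 to 0.85, adjusted p = 0.0701 to 0.125) and when the fit held just the groups in question (adjusted p = 0.0933).

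The mouse genes Tnfrsf26, Tnfrsf22 and Tnfrsf23 lie side by side, and the products of the latter pair bind TRAIL without a death domain. All 3 were higher in GM-MF with and without LPS. Tnfrsf26 read 4.61, 4.40 and 4.85 in unstimulated GM-DC, near the array medians, and 8.99, 8.71 and 9.10 in GM-MF (-4.31 ± 0.16, 19.9-fold, adjusted p = 1.15e-11). With LPS it read 3.74, 4.35 and 4.06 in GM-DC, under the array medians, and 8.51, 8.47 and 8.63 in GM-MF (-4.49 ± 0.16, 22.4-fold, adjusted p = 9.93e-12). Tnfrsf23 read 5.74, 5.33 and 5.29 in unstimulated GM-DC and 8.42, 7.89 and 8.15 in GM-MF (-2.70 ± 0.18, 6.51-fold, adjusted p = 1.10e-08). LPS-treated arrays read 5.34, 5.63 and 4.92 in GM-DC and 7.92, 7.80 and 7.60 in GM-MF (-2.47 ± 0.18, adjusted p = 2.96e-08). Tnfrsf22 differed less, with 4.88, 5.39 and 4.84 in unstimulated GM-DC and 6.25, 6.03 and 6.59 in GM-MF (-1.25 ± 0.17, 2.38-fold, adjusted p = 2.78e-05), and with LPS 5.09, 4.68 and 4.64 in GM-DC and 5.64, 5.83 and 5.60 in GM-MF (-0.89 ± 0.17, adjusted p = 0.000656).

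With LPS, Tnfrsf26 fell in GM-DC at levels near or under the array medians (-0.57 ± 0.16, adjusted p = 0.0298), and Tnfrsf22 fell in GM-MF (-0.60 ± 0.17, adjusted p = 0.0253). The former was lost without GM-DC unstimulated replicate 1 or 3 or GM-DC LPS replicate 1 or 3 (-0.58 to -0.42, adjusted p = 0.0623 to 0.148) and when the fit held just the groups in question (adjusted p = 0.0797). The latter was lost without GM-MF unstimulated replicate 1 or 3 or GM-MF LPS replicate 1 or 3 (-0.62 to -0.45, adjusted p = 0.0579 to 0.13), and after quantile normalization (adjusted p = 0.0767) or cyclic loess (adjusted p = 0.0679).

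Tnfrsf14, which encodes HVEM, a receptor of LIGHT, read 5.83, 5.96 and 6.11 in unstimulated GM-DC and 6.95, 7.03 and 7.20 in GM-MF (-1.09 ± 0.13, 2.14-fold, adjusted p = 7.25e-06). With LPS it read 6.32, 6.34 and 6.38 in GM-DC and 7.20, 7.06 and 7.60 in GM-MF (-0.94 ± 0.13, adjusted p = 3.44e-05). Its LPS difference in GM-DC (0.38 ± 0.13, adjusted p = 0.096) was called with replicate numbers as a block within each cell type (adjusted p = 0.036). Of 4 receptors with smaller called differences, Ltbr, the lymphotoxin beta receptor, was lower in GM-DC without and with LPS (-0.85 ± 0.11 and -0.65 ± 0.11), as was Tnfrsf12a, the TWEAK receptor (-0.73 ± 0.10 and -0.63 ± 0.10). The death receptor gene Fas was higher in unstimulated GM-DC (8.89 ± 0.172 against 8.32 ± 0.148, a difference of 0.58 ± 0.11, adjusted p = 0.000817) and level with LPS (8.65 ± 0.0506 and 8.72 ± 0.117, -0.06 ± 0.11). Tnfrsf8, which encodes CD30, was lower in GM-DC with LPS (4.20 ± 0.202 against 4.74 ± 0.171, a difference of -0.54 ± 0.13, adjusted p = 0.00303), at levels near the array medians.

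Small LPS responses were called in GM-MF for Fas (0.40 ± 0.11, adjusted p = 0.023), Tnfrsf8 (0.40 ± 0.13, adjusted p = 0.0427) and Tnfrsf12a (-0.35 ± 0.10, adjusted p = 0.0211). That of Fas was lost without GM-MF unstimulated replicate 1 or 3 or GM-MF LPS replicate 3 (0.33 to 0.36, adjusted p = 0.0896 to 0.107). The responses of Fas differed between the cell types by -0.64 ± 0.16 (adjusted p = 0.0234), a call lost without any 1 of 6 arrays (adjusted p = 0.058 to 0.0694), namely GM-DC unstimulated replicate 1 or 2, GM-MF unstimulated replicate 1 or 3, GM-DC LPS replicate 2 and GM-MF LPS replicate 3 (-0.62 to -0.56). That of Tnfrsf8 was lost without GM-DC unstimulated replicate 1 or 2, GM-MF unstimulated replicate 2 or 3, or GM-MF LPS replicate 1 or 3 (0.30 to 0.41, adjusted p = 0.0518 to 0.187) and under 5 other settings, and that of Tnfrsf12a without GM-MF unstimulated replicate 1 or 2 or GM-MF LPS replicate 1 (-0.35 to -0.32, adjusted p = 0.0579 to 0.0715) and under 2 other settings.

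The other 8 receptors were called in no comparison. Cd27, Tnfrsf11b (osteoprotegerin, a soluble decoy of RANKL), Tnfrsf17 (BCMA), Tnfrsf19 and Tnfrsf25 (death receptor 3) were above the highest array median, 4.54, on no array. Tnfrsf13b (TACI) and Tnfrsf13c (BAFF receptor) lay above it with group means of 5.54 to 5.80 and 5.34 to 5.40. Tnfrsf9, which encodes 4-1BB, the receptor of 4-1BBL, read between 11.39 and 11.53 on all 12 arrays, an SD of 0.0407. Of the 175 genes whose mean lay within 0.5 of its own, 2 had a smaller SD, and their median SD was 0.196. With the 4 ligands that were called nowhere (Cd40lg, Fasl, Tnfsf11 and Tnfsf18), the 12 uncalled members had differences between -0.36 and 0.29 in all comparisons.

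LPS called 13 members in GM-DC, 11 of them higher and 2 lower, against 9.72% of all genes called, 5.23% higher and 4.49% lower, and 14 in GM-MF, 11 higher and 3 lower, against 17.4%, 6.54% and 10.8%. A change of at least 2-fold was found for 6 members in GM-DC (2.08% of all genes) and 8 in GM-MF (3.17% of all genes). By role, 8 of 15 ligands rose in GM-DC and 7 of 15 in GM-MF and none was called lower, while 3 of 24 receptors rose and 2 fell in GM-DC, and 4 rose and 3 fell in GM-MF. The median difference was 0.95 over ligands and -0.02 over receptors in GM-DC, and 0.69 and -0.01 in GM-MF, beside -0.01 and -0.02 over all genes. Among all genes called in GM-MF the share that rose was 37.7%, and 49.4% after cyclic loess. A rise of at least 2-fold in both cell types was found for 4 members, Cd40, Tnf, Tnfsf8 and Tnfsf15 (0.612% of all genes in the same direction). The count of 13 in GM-DC was 8 without GM-DC unstimulated replicate 1, 8 without GM-DC unstimulated replicate 3, and 8 when the fit held just the unstimulated and LPS arrays of GM-DC.

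The LPS responses of GM-DC and GM-MF differed for 9 members, against 7.59% of all genes called. The response of GM-DC was the higher for 5 (4.53% of all genes), which were Cd70, Tnfsf9, Tnfrsf21, Tnf and Tnfrsf1a, and the lower for 4 (3.06% of all genes), which were Tnfsf8, Tnfsf15, Tnfrsf1b and Fas. The difference reached 2-fold for 6 of them (3.26% of all genes). The 3 ligands Cd70, Tnfsf9 and Tnf rose more in GM-DC, but Tnf did so from a far lower start and stayed lower than in GM-MF.

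**Figure D4:**
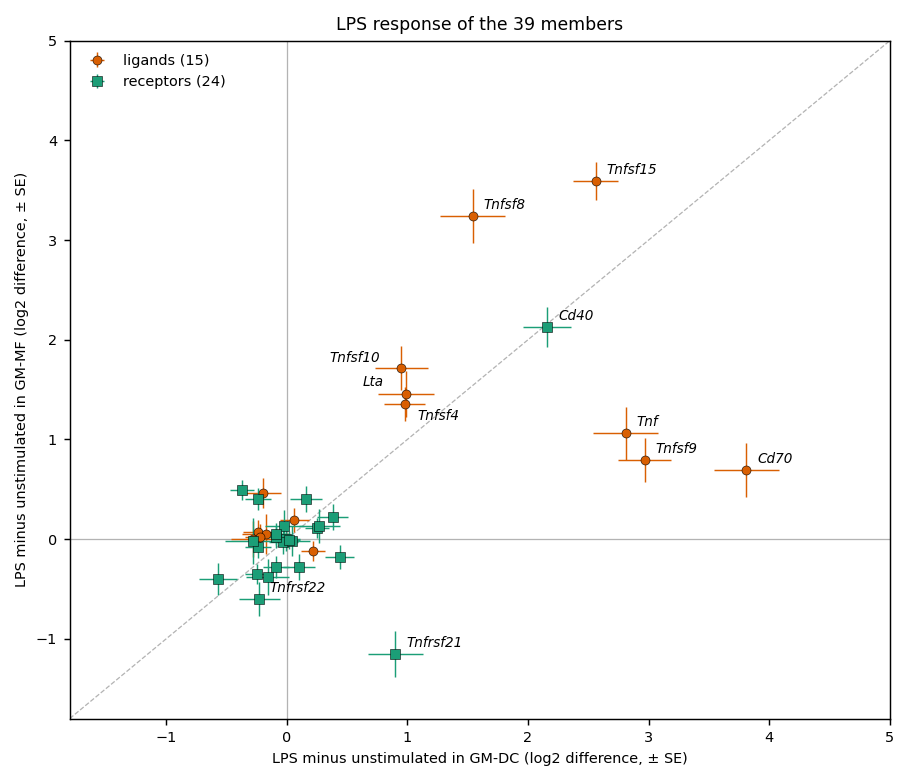
Log2 difference LPS minus unstimulated in GM-DC (x axis) against that in GM-MF (y axis) for the 39 members, with bars of 1 SE of the limma fit; circles are ligands, squares receptors, and the dashed line marks equal responses. Cd70, Tnfsf9 and Tnf lie toward GM-DC, Tnfsf8 and Tnfsf15 toward GM-MF, Cd40 on the line, and Tnfrsf21 rises in GM-DC and falls in GM-MF.

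Many members are neighbours in the genome, a property the choice by symbol did not use. In the order of protein-coding genes of the RefSeq table of assembly GRCm38.p6, 18 of the 39 members form 11 pairs with no protein-coding gene between them. Of these pairs, both genes were called between the cell types without LPS in 6, with the same sign in 4, and with LPS in 7, with the same sign in 6. Over all 16915 adjacent pairs of measured genes both were called in 15.9% without LPS (10.6% with the same sign) and in 17.3% with LPS (11.6%). For LPS both were called in 3 pairs of members in GM-DC and in 3 in GM-MF, each time with the same sign, against 1.29% and 3.46% of all adjacent pairs. A gene can stand in more than 1 pair, and 61.5% of single members were called in each cell type comparison. Tnfrsf4 and Tnfrsf18 were together higher in GM-DC and neither passed for LPS. Tnfrsf26, Tnfrsf22 and Tnfrsf23 were together higher in GM-MF. Tnfsf15 and Tnfsf8 both rose with LPS, and Tnfsf9 and Cd70 both rose in GM-DC by 2.97 and 3.81, while Tnfsf14 beside Cd70 stayed under the array medians.

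Other neighbours differed. Ltb, Tnf and Lta lie in a row, yet without LPS Ltb was higher in GM-DC (1.79), Tnf higher in GM-MF (-5.05) and Lta not called (0.09). Tnfsf4 was called in all 4 comparisons of groups, while Tnfsf18 and Fasl beside it were under the array medians. These comparisons share arrays, and the values of neighbouring genes are given side by side with no test of their likeness.

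**Figure D5:**
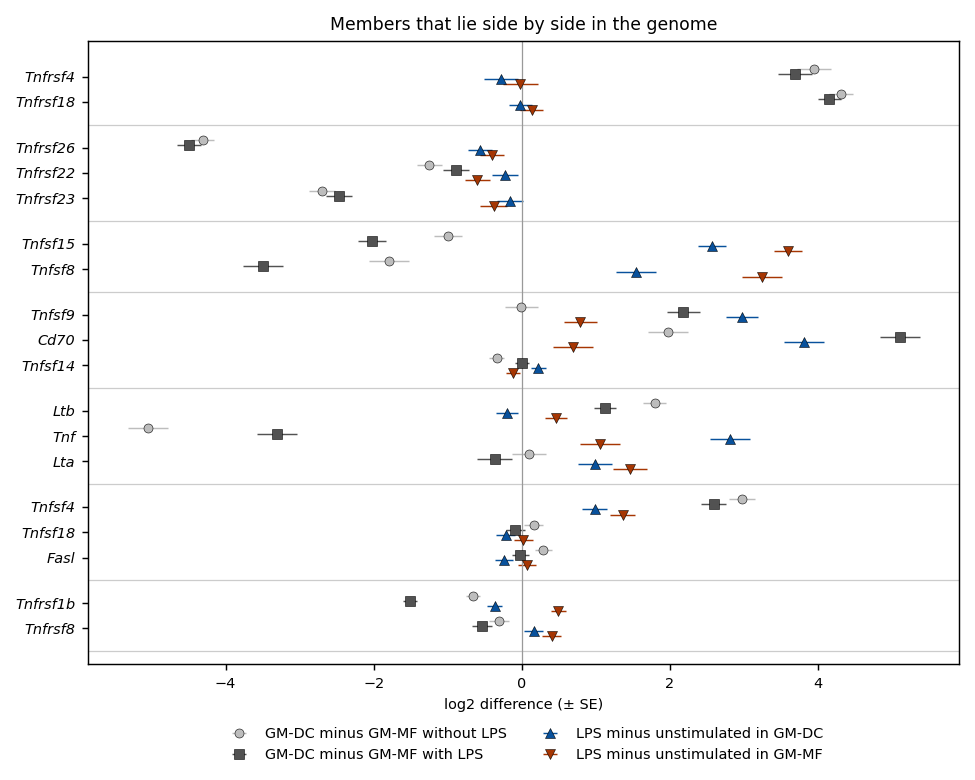
Log2 differences (x axis, bars are 1 SE of the limma fit) of members that lie side by side in the genome (y axis, sets parted by lines) in the 2 cell type comparisons (circles and squares) and the 2 LPS comparisons (triangles). Tnfrsf4 and Tnfrsf18 lie to the right and Tnfrsf26, Tnfrsf22 and Tnfrsf23 to the left in the cell type comparisons, and Ltb and Tnf lie on opposite sides.

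Promoter sequences from RefSeq (GRCm38.p6) matched 30 of the 39 members by symbol, in 34 windows. The 250 bases before the transcription start are shown for the row of Ltb, Tnf and Lta, whose differences between the cell types had unlike signs, for Tnfsf15 and Tnfsf8, which rose together, for Tnfrsf4 and Tnfrsf18, which were high together in GM-DC, for Tnfrsf1b, whose LPS responses had opposite signs, and for Tnfrsf9, which was flat. Capitals mark matches, on either strand, to 4 motifs: the NF-kB consensus, a pair of GAAA boxes parted by any 2 bases (the core of interferon response elements), TGANTCA (the AP-1 site) and TATAAA (the TATA box).
Ltb promoter (chr17:35194257-35194506, strand +): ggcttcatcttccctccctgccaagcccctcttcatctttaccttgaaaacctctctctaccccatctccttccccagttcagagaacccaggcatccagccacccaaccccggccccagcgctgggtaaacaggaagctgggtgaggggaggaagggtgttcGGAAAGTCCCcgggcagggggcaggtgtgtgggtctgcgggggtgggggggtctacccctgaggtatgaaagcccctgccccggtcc
Tnf promoter (chr17:35202008-35202257, strand -): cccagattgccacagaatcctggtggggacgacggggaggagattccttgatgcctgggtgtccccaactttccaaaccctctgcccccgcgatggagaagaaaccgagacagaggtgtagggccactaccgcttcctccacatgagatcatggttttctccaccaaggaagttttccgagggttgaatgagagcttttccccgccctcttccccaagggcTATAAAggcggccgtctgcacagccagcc
Lta promoter (chr17:35205352-35205601, strand -): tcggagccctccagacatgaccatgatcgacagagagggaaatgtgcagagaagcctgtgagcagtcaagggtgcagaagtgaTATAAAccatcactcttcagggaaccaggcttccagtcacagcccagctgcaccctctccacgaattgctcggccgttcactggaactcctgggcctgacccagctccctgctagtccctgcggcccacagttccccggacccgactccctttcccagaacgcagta
Tnfsf15 promoter (chr4:63745060-63745309, strand -): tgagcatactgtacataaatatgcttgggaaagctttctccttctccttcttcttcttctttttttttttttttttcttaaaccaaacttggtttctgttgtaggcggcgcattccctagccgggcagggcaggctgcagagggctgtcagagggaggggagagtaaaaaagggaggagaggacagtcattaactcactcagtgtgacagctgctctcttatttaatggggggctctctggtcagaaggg
Tnfsf8 promoter (chr4:63861285-63861534, strand -): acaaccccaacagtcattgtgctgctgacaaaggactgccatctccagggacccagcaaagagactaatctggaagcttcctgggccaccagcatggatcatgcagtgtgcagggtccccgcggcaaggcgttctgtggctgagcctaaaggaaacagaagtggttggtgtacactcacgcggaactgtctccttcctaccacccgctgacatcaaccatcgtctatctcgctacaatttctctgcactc
Tnfrsf4 promoter (chr4:156013445-156013694, strand +): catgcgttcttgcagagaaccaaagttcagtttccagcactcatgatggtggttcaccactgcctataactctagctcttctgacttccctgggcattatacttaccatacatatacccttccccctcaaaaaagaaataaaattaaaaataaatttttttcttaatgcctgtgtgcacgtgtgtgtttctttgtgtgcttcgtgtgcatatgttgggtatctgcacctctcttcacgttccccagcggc
Tnfrsf18 promoter (chr4:156026072-156026321, strand +): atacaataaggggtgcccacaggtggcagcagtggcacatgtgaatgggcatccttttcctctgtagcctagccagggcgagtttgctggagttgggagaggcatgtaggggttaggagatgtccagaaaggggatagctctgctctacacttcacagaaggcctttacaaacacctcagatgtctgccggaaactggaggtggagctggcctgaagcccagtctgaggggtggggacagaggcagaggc
Tnfrsf1b promoter (chr4:145246871-145247120, strand -): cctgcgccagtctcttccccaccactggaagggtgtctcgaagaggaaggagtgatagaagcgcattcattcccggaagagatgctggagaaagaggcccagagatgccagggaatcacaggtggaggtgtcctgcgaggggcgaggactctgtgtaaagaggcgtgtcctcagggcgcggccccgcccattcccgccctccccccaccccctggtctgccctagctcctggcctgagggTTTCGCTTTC
Tnfrsf9 promoter (chr4:150927749-150927998, strand +): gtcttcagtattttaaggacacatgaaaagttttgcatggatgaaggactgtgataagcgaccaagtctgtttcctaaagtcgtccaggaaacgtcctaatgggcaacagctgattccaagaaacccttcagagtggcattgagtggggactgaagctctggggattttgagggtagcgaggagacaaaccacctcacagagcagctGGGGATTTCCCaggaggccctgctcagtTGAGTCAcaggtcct
The NF-kB consensus matched 4 of the 34 windows of members, against 7.25% of all 32851 windows. They belonged to Ltb, Tnfrsf25, Tnfrsf8 and the start of Tnfrsf9 shown, where overlapping matches span 43 to 33 bases before the start. The window of the other start of Tnfrsf9, not shown, held none of the 4 motifs. The paired GAAA boxes matched 4 windows (2.98% of all), those of Tnfrsf14, Tnfrsf17, Tnfrsf1b and Tnfsf13b, and TGANTCA matched 5 (6.75% of all). TATAAA matched 6 windows (12.4% of all), among them Tnf at 29 bases before the start. In Ltb the NF-kB match begins 87 bases before the start. The windows of Tnfsf15, Tnfsf8, Tnfrsf4 and Tnfrsf18 held none of the 4 motifs, which says only that these letters are not in these 250 bases. A match is a description and not a site shown to be bound.

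Set against their partners, 21 of 24 listed pairs of ligand and receptor had both genes measured. Without LPS both were called in 7 pairs, the same way in 5, and with LPS in 6 pairs, the same way in 4. Since 61.5% of single members were called in each of these comparisons, and several genes stand in more than 1 pair, the counts are a description. The pairs that were called the same way with and without LPS were Tnf with Tnfrsf1a, Tnf with Tnfrsf1b, both higher in GM-MF, and Tnfsf4 with Tnfrsf4, both higher in GM-DC. Called the same way only without LPS were Tnfsf14 with Ltbr and Tnfsf14 with Tnfrsf14. There Tnfsf14 was under the array medians, and its call was lost without some single arrays. Called the same way only with LPS was Tnfsf8 with Tnfrsf8, a receptor gene near the array medians. Ltb with Ltbr and Tnfsf10 with Tnfrsf10b were called in opposite ways with and without LPS. For GITR, RANK and CD40 the receptor differed between the cell types while the ligand gene (Tnfsf18, Tnfsf11, Cd40lg) was not called, and for CD70 the ligand differed while Cd27 was under the array medians.

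The lists of 73 genes held carriers of the signals of these receptors, genes that release the ligands, and 7 family genes outside the symbol rule. Of the 73, 64 were measured. Without LPS 24 were higher and 15 lower in GM-DC, and with LPS 24 higher and 18 lower. Over all genes 18.0% were called higher and 16.2% lower without LPS, and 20.9% and 15.4% with LPS. The lists had medians of 0.17 and 0.06 beside -0.01 and 0.00 over all genes. Higher in GM-DC without LPS were Map3k14 (3.17 ± 0.19, adjusted p = 2.56e-09), the kinase NIK of the non-canonical NF-kB pathway, and Birc2 (2.57 ± 0.14, adjusted p = 6.74e-10), the ubiquitin ligase cIAP1 that binds TRAF2. Map3k1 (2.41 ± 0.12), a MAP kinase kinase kinase, and Timp3 (2.46 ± 0.24), an inhibitor of the TNF-shedding protease, were also higher. Of 7 NF-kB subunits and inhibitors 4 were higher in GM-DC without LPS and none was lower, against 18.0% of all genes higher.

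Lower in GM-DC without LPS were Mlkl (-4.36 ± 0.23, adjusted p = 7.87e-10) and Ripk3 (-1.92 ± 0.14, adjusted p = 3.18e-08), the executioner and kinase of necroptosis, Map3k5 (-2.42 ± 0.22), the kinase ASK1, and Adam17 (-2.35 ± 0.13, adjusted p = 1.01e-09), the protease that sheds TNF. Rhbdf2, which encodes iRhom2, the carrier of ADAM17, was lower without LPS (-1.58 ± 0.13, adjusted p = 7.5e-08) and with LPS (-2.28 ± 0.13, adjusted p = 1.23e-09). Of 8 caspase and RIP kinase genes 5 were lower in GM-DC without and 6 with LPS, and none was higher. Of 9 genes of shedding and trafficking 5 were lower and 2 higher without LPS. The share of all genes called lower was 16.2% without and 15.4% with LPS.

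LPS raised 13 of the 64 and lowered 3 in GM-DC, and raised 22 and lowered 4 in GM-MF. Of all genes 5.23% rose and 4.49% fell in GM-DC, and 6.54% rose and 10.8% fell in GM-MF. In GM-DC Map3k8, the kinase TPL2, rose by 1.55 ± 0.14, Mlkl by 1.40 ± 0.23, and Map3k14 fell (-1.04 ± 0.19, adjusted p = 0.00196). In GM-MF the protease gene Furin rose by 1.85 ± 0.17, Tnfaip3, which encodes the NF-kB inhibitor A20, by 1.52 ± 0.15, Rel by 1.49 ± 0.11 and Map3k5 by 1.49 ± 0.22. Responses that differed by at least 2-fold were those of Rel (-1.70 ± 0.16, adjusted p = 1.11e-05), Furin (-1.11 ± 0.23, adjusted p = 0.00761) and Eda2r (1.52 ± 0.25, adjusted p = 0.00113), a receptor of the family whose symbol is outside the naming rule and which read 3.26 ± 0.0524 and 4.68 ± 0.452 in GM-DC without and with LPS. Relt, another such receptor, was higher in GM-DC with LPS (2.09 ± 0.15, adjusted p = 2.16e-08).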

How the data were processed

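RNA from 12 samples, 3 in each of 4 groups, was measured on Affymetrix Mouse Gene 1.0 arrays. The deposited values are log2 intensities that the authors computed by RMA, under R 3.0.2 per the submitters' processing notes; other settings and the genome build are not given in the sources used here, and values of 1.18 to 13.7 point to log base 2, which was assumed.

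Of 35556 probe sets, 21789 had 1 gene symbol in the platform annotation, and the probe set with the highest mean was kept for each of 19938 genes. All 39 members were found in RefSeq under the same symbol. Group means were fitted on all 12 arrays with limma 3.58.1 in R 4.3.3 (lmFit, contrasts.fit and eBayes without trend, 8 residual degrees of freedom), with Benjamini-Hochberg adjustment over all genes. Array number limits the precision. The fit was tested on simulated data.

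The members, the pathway, marker and pair lists and the tests were chosen with earlier results of these data known. Values on every array are given for members called with a log2 difference of at least 1 in any comparison; pathway genes were named under the same limits, up to 4 per direction and comparison. Tnfrsf9 and other genes outside that rule were chosen after their values were seen.

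The sample labels give the replicate numbers. Deviations from the group means were correlated between same-numbered arrays without and with LPS. In GM-DC this gave 0.1188, 0.1355 and 0.3633, and in GM-MF 0.2572, 0.1876 and 0.1037, each over 0.1. A block of replicate numbers within each cell type was therefore run as an alternative, while the main fit used no pairing. In GM-DC, however, some differently numbered arrays correlated as much, at 0.1198 (unstimulated 1 with LPS 2) and 0.1645 (unstimulated 2 with LPS 1). The pairing of these arrays is thus not settled. Between the cell types the same numbers gave 0.0117, -0.1683 and -0.0412 without LPS and 0.1562, -0.0047 and 0.0846 with LPS. They were not shown to pair the cell types. Alternatives were the summary of probe sets, scaling, filters, moderation, array weights, arrays in the fit, replicate blocks and leaving out each array.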

Additional observations from a re-analysis of the deposited data

Results flagged for a closer look

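For 9 members the LPS responses of GM-DC and GM-MF differed by the limma test of the difference itself. In favour of GM-DC the difference was 3.12 for Cd70, 2.18 for Tnfsf9, 2.04 for Tnfrsf21, 1.74 for Tnf and 0.62 for Tnfrsf1a, and in favour of GM-MF it was -1.70 for Tnfsf8, -1.03 for Tnfsf15, -0.85 for Tnfrsf1b and -0.64 for Fas. Tnfrsf21 and Tnfrsf1b were called in opposite directions in the 2 cell types, but the call of each in GM-DC was lost without some single arrays. The calls for the difference of responses of Tnfsf15, Tnfrsf1a and Fas were each lost without some single arrays.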

How the results depend on the processing

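The 84 called differences of members kept their direction under all 24 alternative settings in which they could be computed, 1955 values in all. Of these values 1861 kept the call and 94 lost it. Among 53 called differences of at least 2-fold, 1 lost its call under any setting (Tnfsf15, difference of LPS responses), and among 31 smaller ones 16 did. The cause was not tested. With only the arrays compared, which leaves fewer arrays in the fit, LPS in GM-DC called 8 members in place of 13. Asking for at least 2-fold as well left 15 members without LPS between the cell types, 6 for LPS in GM-DC and 8 for LPS in GM-MF. Leaving out 1 array at a time gave 22 to 25 members between the cell types without LPS and 23 to 25 with LPS, 8 to 14 for LPS in GM-DC, 10 to 15 for LPS in GM-MF and 6 to 9 for the difference of responses.

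With replicate number as a block over all groups, the counts were 26, 24, 14, 15 and 9 in the same order. With the replicate block within each cell type, an alternative chosen after seeing the data, they were 13 for LPS in GM-DC, 16 in GM-MF and 9 for the difference, and Tnfrsf1b in GM-DC and the difference of Tnfsf15 lost their calls. No other call of a member was lost under this block. It added calls for Tnfrsf14 in GM-DC (0.38, adjusted p = 0.036), Ltb (0.46, adjusted p = 0.00645) and Ltbr (-0.28, adjusted p = 0.0476) in GM-MF and the difference of Ltb (-0.66, adjusted p = 0.0119), by limma. The block over all groups added Tnfrsf17 and Tnfrsf8 between the cell types without LPS, Tnfrsf14 for LPS in GM-DC and Ltb for LPS in GM-MF. Signals near the array medians limit what can be read from a low gene.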
